A study of Torulaspora microellipsoides with 8 samples.

Results

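Transcripts of the enzymes that set gluconeogenesis and the glyoxylate cycle apart from glycolysis and respiration were examined in white and opaque cells of the budding yeast Torulaspora microellipsoides. The 10 enzymes sought by name were PCK1, FBP1, ICL1, ICL2, MLS1, CIT2, MDH2, MDH3, PYC1 and PYC2. A transcribed region was taken as a member when the S. cerevisiae gene name given to it in the deposited annotation was one of these, which gave 10 of the 4464 regions with counts, under 8 names. No region carried the name CIT2 or PYC1. The tested cultures were 3 opaque cultures, compared with 3 white cultures, which form colonies of a different appearance and texture. All 6 came from the same strain with no allele or agent added, and were grown at about 23 °C in yeast extract glucose medium to an OD600 of 1.0, after starting at an OD600 of 0.05. The study found opaque cells to be larger and to hold more DNA than the haploid white cells, and the labels describe each culture as checked for purity of its cell type. No marker that defines either cell type independently of these libraries was used to check the labels.

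Gluconeogenesis rebuilds glucose 6-phosphate from smaller carbon compounds. It shares most of its steps with glycolysis and uses its own enzymes where glycolysis is irreversible. Pyruvate carboxylase (PYC1 and PYC2) makes oxaloacetate, phosphoenolpyruvate carboxykinase (PCK1) turns oxaloacetate into phosphoenolpyruvate, and fructose-1,6-bisphosphatase (FBP1) reverses the step of phosphofructokinase. The glyoxylate cycle lets yeast build C4 acids from acetyl units by bypassing the steps of the tricarboxylic acid cycle that release carbon dioxide, with isocitrate lyase (ICL1) and malate synthase (MLS1) as its own enzymes. In S. cerevisiae, glucose represses PCK1, FBP1, ICL1, MLS1 and MDH2, and the activators Cat8 and Adr1 switch on much of the pathway when glucose runs out.

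Of the 8 named enzymes, PCK1 and FBP1 had each a main region well matched to the S. cerevisiae protein. That of PCK1 lies on scaffold 5 of the CLIB830T assembly from 65945 to 67588 on the minus strand, is 1643 bp long and matches at 85.95% identity. The FBP1 region lies on the plus strand of scaffold 4 from 422579 to 423610 (1031 bp, 77.87%). MLS1 was found on scaffold 5 from 690768 to 692429 (1661 bp, 84.66%) and ICL2 on scaffold 7 from 242750 to 244426 (1676 bp, 68.57%). The malate dehydrogenase names fell to scaffold 9 from 106260 to 107234 for MDH2 (974 bp, 63.5%) and to scaffold 1 from 719342 to 720370 for MDH3 (1028 bp, 64.84%). PYC2 was the longest and best matched member, on scaffold 8 from 446212 to 449697 (3485 bp, 88.98%). The main ICL1 region, on scaffold 6 from 410398 to 410922, is only 524 bp long although it matches at 85.14%, and fills nearly all of the 528 bp of its predicted transcript. PCK1 and ICL1 each had another region of 101 bp, on scaffold 5 from 863916 to 864017 and on scaffold 1 from 580855 to 580956, matching at 35.29% and 40.0%. Whether these short and diverged regions belong to the enzymes is not settled by a name given for the best match. For the same reason, MDH2 and MDH3 here are names of best matches. No region was named MDH1, and the single regions named PYC2 and CIT1 stand where S. cerevisiae has a pair of close duplicates. None of the 10 regions overlaps another counted region. The median length of the members was 1030 bp and their median identity 73.2%, against 962.0 bp and 58.8% over all regions.

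The libraries held 24948791 to 50126043 counts, and counts were scaled by TMM, a factor that sets libraries to a shared trimmed mean, and given as CPM, the count scaled to a library of 1e6 counts. Groups were compared over all 4404 regions that passed a filter on low counts with edgeR's quasi-likelihood test, and a region was said to rise or fall in opaque cells at a Benjamini-Hochberg adjusted p under 0.05. A log2 fold change is opaque minus white. In these whole-culture libraries, fewer transcript-bearing cells and less of a transcript in each cell cannot be told apart, and levels are relative to the other mRNA of a library. Differences were widespread, with 37.6% of all tested regions lower and 36.6% higher in opaque cells, so that a call by itself sets a region little apart.

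All 10 member regions passed the filter, and each had at least 1 count in every library. 6 of them fell in opaque cells and 1 rose, against 74.2% of all regions called in either direction, and 3 did not pass the test. 2 regions fell at least 4-fold, which 5.25% of all tested regions did, and no member rose that far, which 5.93% did. The 3 opaque and the 3 white libraries did not overlap for 8 of the 10, close to the 77.8% over all regions. The median log2 fold change of the members was -0.72, against -0.02 over all tested regions. Together the members took 0.106, 0.103 and 0.104% of the counts of opaque libraries 1, 2 and 3, and 0.199, 0.196 and 0.208% of those of white libraries 1, 2 and 3.

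**Figure D1:**
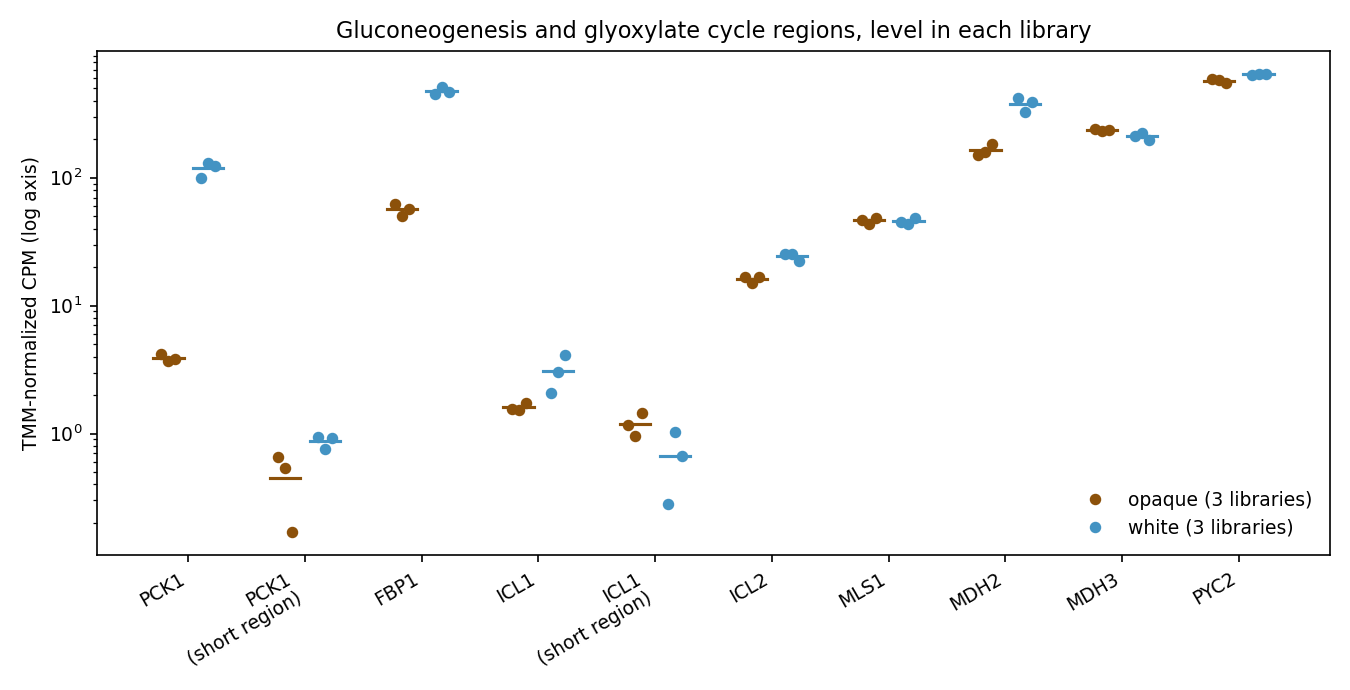
TMM-normalized CPM (log axis) of the 10 member regions in each library, as points, with group means as lines, for 3 opaque (brown) and 3 white (blue) libraries. PCK1 and FBP1 are separated furthest, at 3.90 and 56.6 CPM on average in opaque cells, against 118 and 477 CPM in white cells, whereas MLS1, MDH3 and PYC2 lie close together in both.

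The dedicated steps of gluconeogenesis carried the large differences. PCK1, which commits oxaloacetate to glucose synthesis, was at 4.18, 3.69 and 3.835 CPM in opaque libraries 1, 2 and 3, against 99.95, 130.8 and 123.6 CPM in white libraries 1, 2 and 3. Every white library was far above every opaque library. The PCK1 mean was 3.90 ± 0.25 CPM in opaque cells and 118 ± 16.2 CPM in white cells (SD, n = 3 each), so that PCK1 fell by 4.91 on the log2 scale (95% interval -5.18 to -4.63, adjusted p = 8.2e-11, edgeR), or 29.99-fold. Only 0.795% of all tested regions had a lower log2 fold change. Scaled to length, the PCK1 level stood above that of 2.23% of all tested regions in opaque cells and of 60.2% in white cells. These reads were 199, 89 and 90 counts in the opaque libraries, and covered 100, 96.9 and 100% of the bases of the region. In the short region that also carries the name, 31, 13 and 4 counts were found in opaque libraries 1, 2 and 3, against 27, 28 and 37 in white libraries 1, 2 and 3. Its log2 fold change of -0.85 did not pass (95% interval -1.74 to 0.05, adjusted p = 0.08, edgeR). It passed without opaque library 1 (-1.30, adjusted p = 0.0428, edgeR) and with total counts in place of TMM (-1.003, adjusted p = 0.0498, edgeR), and was -0.54 without opaque library 3.

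FBP1, which removes a phosphate from fructose 1,6-bisphosphate and is the other dedicated enzyme, was at 61.9, 50.5 and 57.3 CPM in the opaque libraries, against 453.5, 511.4 and 466.9 CPM in the white libraries. The groups were wide apart and narrow within, at 56.6 ± 5.73 CPM in opaque cells and 477 ± 30.3 CPM in white cells (SD, n = 3 each). FBP1 fell by 3.07 on the log2 scale (95% interval -3.27 to -2.88, adjusted p = 1.5e-10, edgeR), which is 8.42-fold lower in opaque cells. Its interval does not reach that of PCK1. Unlike PCK1, FBP1 remained at a middle level in opaque cells, above 49.6% of the tested regions per length, whereas it was above 92.6% in white cells.

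PYC2, which feeds the pathway with oxaloacetate and also refills the tricarboxylic acid cycle, differed little. It was at 591.5, 576.8 and 552.2 CPM in the opaque libraries, against 634.3, 645.8 and 650.5 CPM in the white libraries. The groups did not overlap, but the difference was only -0.17 in log2 (95% interval -0.30 to -0.03, adjusted p = 0.029, edgeR). It did not pass without opaque library 3 (-0.16, adjusted p = 0.0565) or without white library 3 (-0.17, adjusted p = 0.0502, edgeR).

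Of the enzymes that belong to the glyoxylate cycle alone, MLS1 did not pass the test, and ICL1 fell from a low level. MLS1, which joins glyoxylate and acetyl-CoA into malate, was at 46.8, 43.8 and 48.6 CPM in the opaque libraries, against 44.7, 43.5 and 48.8 CPM in the white libraries. The groups overlapped throughout. The difference of 0.02 in log2 did not pass the test (adjusted p = 0.79, edgeR). The 95% interval of -0.14 to 0.19 contains no change of the size seen for FBP1, MDH2 or ICL2, and the sign turned under scaling by the upper quartile (-0.094) or by total counts (-0.14). ICL1, which splits isocitrate into succinate and glyoxylate, was scarce in both cell types, as far as a main region of only 524 bp can show. Its main region had 74, 37 and 41 counts in opaque libraries 1, 2 and 3, against 59, 111 and 165 counts in white libraries 1, 2 and 3. These are 1.55, 1.53 and 1.75 CPM in opaque cells, against 2.07, 3.03 and 4.09 CPM in white cells, where the spread was wide. ICL1 fell by 0.95 on the log2 scale (95% interval -1.53 to -0.37, adjusted p = 0.0068, edgeR), with a value of -0.69 when white library 3 was left out. Scaled to length, it stood above 2.84% of the tested regions in opaque cells and 4.81% in white cells. Its short region moved the other way, with 56, 23 and 34 counts in the opaque libraries, against 8, 38 and 27 in the white libraries, and did not pass (log2 fold change 0.80, 95% interval -0.09 to 1.69, adjusted p = 0.091, edgeR). It passed without white library 2 (1.25, adjusted p = 0.02) and was 0.47 without white library 1. With the counts of both ICL1 regions summed, the log2 fold change was -0.48 and did not pass (adjusted p = 0.11, edgeR).

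ICL2 encodes a lyase of mitochondria that in S. cerevisiae acts on 2-methylisocitrate, in the breakdown of propionate units, rather than in the glyoxylate cycle. It was at 16.6, 14.95 and 16.75 CPM in the opaque libraries, against 25.4, 25.5 and 22.35 CPM in the white libraries. No opaque library reached a white one, and ICL2 fell by 0.60 (95% interval -0.81 to -0.39, adjusted p = 1.5e-04, edgeR).

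The malate dehydrogenase names parted. In S. cerevisiae, Mdh2 is the cytosolic enzyme that serves gluconeogenesis, and Mdh3 is the peroxisomal one that reoxidizes NADH during fatty acid oxidation. MDH2 was at 149.6, 158.1 and 184.3 CPM in the opaque libraries, against 418.4, 326.7 and 388.5 CPM in the white libraries. With 164 ± 18.1 CPM in opaque cells and 378 ± 46.8 CPM in white cells (SD, n = 3 each), it fell by 1.21 (-1.44 to -0.97, adjusted p = 2.4e-06, edgeR), or 2.31-fold lower. MDH3 was at 239.3, 230.5 and 238.0 CPM in the opaque libraries, against 210.8, 222.9 and 197.6 CPM in the white libraries. Its log2 fold change of 0.17 (95% interval 0.02 to 0.31, adjusted p = 0.037, edgeR) was the only rise among the members, and one that ended with total counts in place of TMM (0.01, adjusted p = 0.867, edgeR). It also ended when any library other than white library 2 was left out, with 0.11 (adjusted p = 0.162, edgeR) without white library 3.

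**Figure D2:**
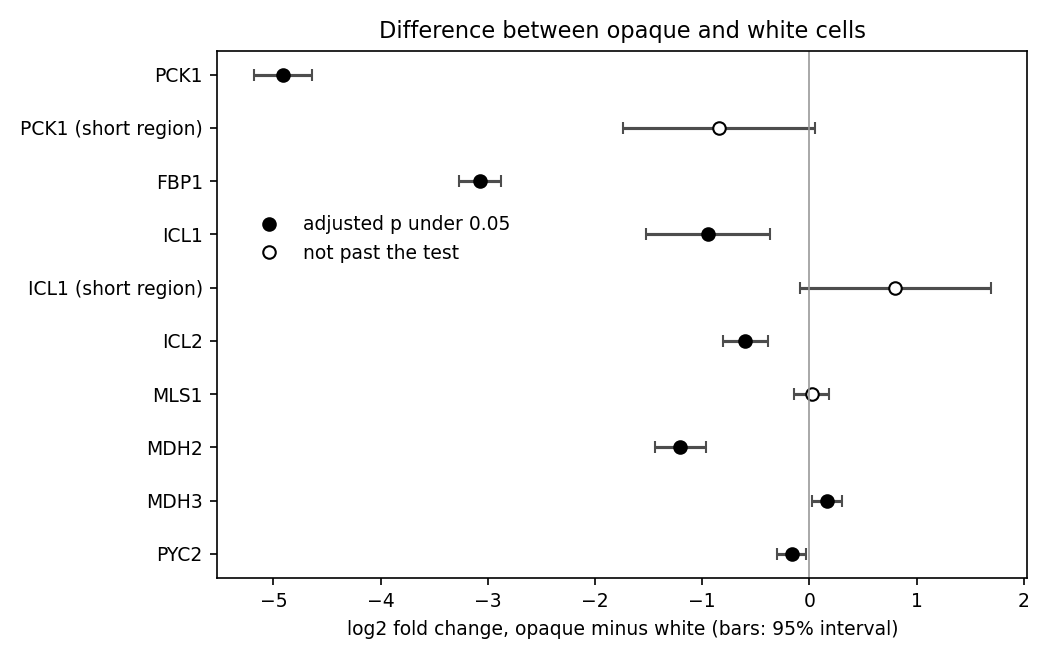
Log2 fold change (opaque minus white) of each member region with its 95% interval, from the fit over all regions, where filled points passed at an adjusted p under 0.05 and open points did not. PCK1 at -4.91 and FBP1 at -3.07 lie apart from the other regions, which range from -1.21 (MDH2) to 0.80 (the short ICL1 region, not past the test).

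The order of the levels differed between the cell types. Per kb of region, the white mean was highest for FBP1 at 462.9 ± 29.4 CPM per kb, followed by MDH2 at 387.9 ± 48.0, MDH3 at 204.7 ± 12.3, PYC2 at 184.7 ± 2.39, PCK1 at 71.9 ± 9.84, MLS1 at 27.5 ± 1.66 and ICL2 at 14.6 ± 1.07 (SD, n = 3). No neighbours in that part of the white order overlapped between libraries. In opaque cells MDH3 was highest at 229.5 ± 4.598 CPM per kb, followed by MDH2 at 168.4 ± 18.6 and PYC2 at 164.6 ± 5.70, which overlapped, and then by FBP1 at 54.9 ± 5.55 and MLS1 at 27.9 ± 1.45 (SD, n = 3). The main PCK1 region had the lowest mean of all 10 regions in opaque cells at 2.37 ± 0.15 CPM per kb, just under ICL1 at 3.07 ± 0.23. The short PCK1 region, at 1.688 to 6.442 CPM per kb in the opaque libraries, overlapped both. In white cells ICL1 was last, at 5.85 ± 1.93 CPM per kb, and overlapped both short regions.

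Ratios taken within a library compare each enzyme with a partner of the opposing or parallel route, and do not depend on the scaling between libraries. For 8 pairs both names were found. The log2 ratio of FBP1 to PFK1, a subunit of phosphofructokinase, was -3.88, -4.15 and -3.88 in opaque libraries 1, 2 and 3, against -0.78, -0.65 and -0.74 in white libraries 1, 2 and 3. PFK1 itself was at 2514 ± 106 CPM in opaque cells and 2240 ± 34.9 CPM in white cells (SD, n = 3 each), and FBP1 per kb was at 0.0639 of its level in opaque cells and at 0.606 in white cells. Against the other subunit, PFK2, the difference was -3.09. PCK1 to CDC19, the pyruvate kinase that works against it, differed by -4.99, with a mean log2 ratio of -11.62 ± 0.059 in opaque cells and -6.64 ± 0.227 in white cells (SD, n = 3 each). CDC19, at 11200 ± 356 CPM in opaque cells and 10640 ± 598 CPM in white cells, did not pass the test at 0.07 in log2 (adjusted p = 0.32, edgeR). Another region named CDC19, of 326 bp at 24.78% identity and with a mean of only 31.17 counts, fell by 2.66 (adjusted p = 7.2e-05, edgeR). PCK1 to PYC2, the enzymes that use and make oxaloacetate, differed by -4.75. MDH2 was below MDH3 in every opaque library and above it in every white library, with mean log2 ratios of -0.45 ± 0.155 in opaque cells and 0.92 ± 0.249 in white cells (SD, n = 3 each).

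**Figure D3:**
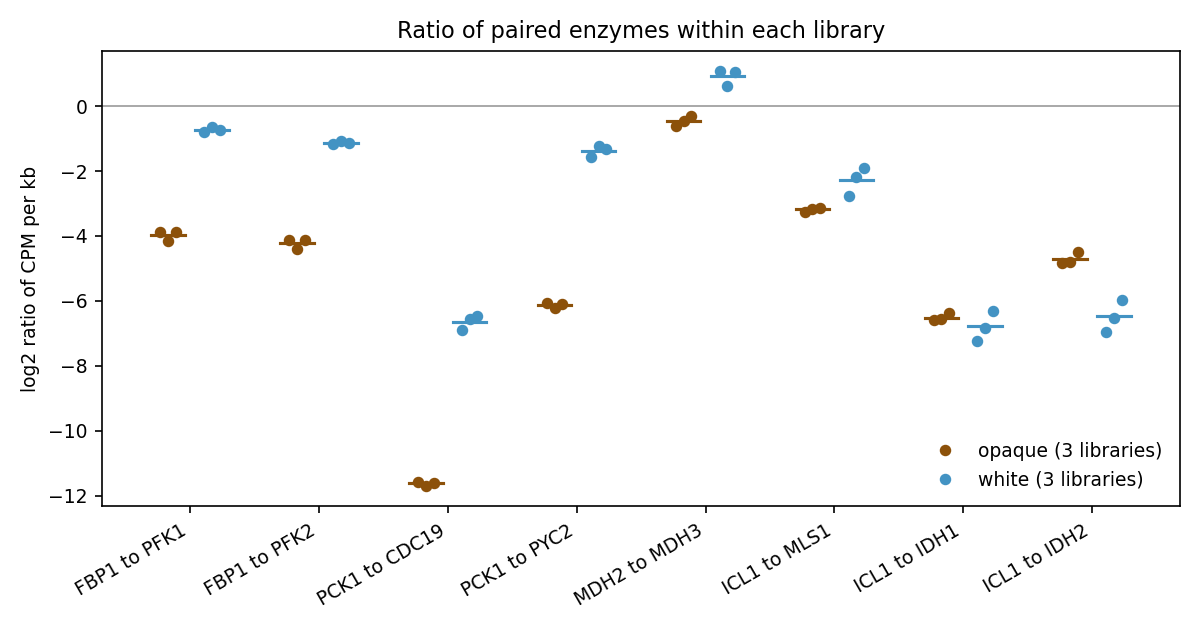
Log2 ratio of CPM per kb of paired enzymes in each library (points) with group means (lines), for 3 opaque (brown) and 3 white (blue) libraries. The opaque libraries lie below the white ones for FBP1 to PFK1 (mean -3.97 against -0.72) and PCK1 to CDC19 (-11.62 against -6.64), and above them for ICL1 to IDH2 (-4.71 against -6.48).

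The ICL1 ratios depended on the partner. ICL1 to MLS1 differed by -0.90 and ICL1 to IDH2, a subunit of the isocitrate dehydrogenase that competes for the same substrate, by 1.77, since IDH2 fell more than ICL1 did. ICL1 to IDH1, the other subunit, had overlapping groups (difference 0.28, exact two-sided permutation p = 0.5). For the other 7 pairs the groups did not overlap, and each gave an exact two-sided permutation p of 0.1, the smallest that 3 against 3 libraries can give (0.114 after adjustment over the 8 pairs), so that no ratio could pass the threshold.

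Other genes of the surrounding pathways were counted from lists of S. cerevisiae names, with the most abundant region standing for a name. Over all 3289 tested names, 1230 fell, 140 of these at least 4-fold, and 1353 rose. The counts of every list are to be read beside these. Enzymes that make acetyl-CoA from ethanol and acetate had the lowest median, at -2.21. Of 7 names, 5 fell, 4 of these at least 4-fold, and 1 rose. The aldehyde dehydrogenase genes ALD4 and ALD6, acetyl-CoA synthetase (ACS1) and ACH1, which transfers CoA to acetate, fell, with log2 values of -7.92, -5.39, -3.45 and -2.21 (adjusted p = 1.8e-12, 2.9e-11, 1.2e-10 and 2.2e-10, edgeR). The name that rose, ACS2, rests on a region of 92 bp at 41.94% identity, and ALD5 at -0.01 did not pass (adjusted p = 0.96, edgeR). In the mitochondrial tricarboxylic acid cycle 13 of 14 names fell, with a median of -1.60. Citrate synthase (CIT1), IDH2 and aconitase (ACO1) fell, with -2.56, -2.64 and -2.32 in log2 (adjusted p = 1.2e-10, 1.3e-10 and 2.2e-10, edgeR). IDH1 fell by 1.15 (adjusted p = 2.9e-08, edgeR).

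By contrast, the reversible steps that gluconeogenesis shares with glycolysis were lower for 3 of 8 names and higher for 1, with a median of -0.05 against 0.02 over all 3289 tested names. The share lower, 37.5%, was close to the 1230 of 3289 over all names. The isomerase PGI1, which makes glucose 6-phosphate, and the aldolase FBA1 fell, with -0.94 and -0.38 in log2, and TPI1, which interconverts the triose phosphates, rose by 0.53 (adjusted p = 1.6e-07, 0.0016 and 4.5e-05, edgeR). PGK1, phosphoglycerate kinase, fell by 0.18 (adjusted p = 0.026, edgeR). Of 4 names at the opposing glycolytic steps, 1 fell, 1 rose and 2 did not pass. FBP26, which degrades fructose 2,6-bisphosphate, the inhibitor of fructose-1,6-bisphosphatase, was at 57.4 ± 1.57 CPM in opaque cells and 172 ± 24.1 CPM in white cells (SD, n = 3 each) and fell by 1.59 (adjusted p = 3.9e-08, edgeR). PFK1 passed at 0.17 in log2 (adjusted p = 0.03, edgeR) but was 0.01 with total counts (adjusted p = 0.86, edgeR). Its call was also lost without opaque library 1 or 2 or white library 1 or 3 (0.13, 0.14, 0.14 and 0.15, adjusted p = 0.123, 0.0928, 0.104 and 0.0543, edgeR), and with upper-quartile scaling, at least 10 counts in every library and summed counts. PFK2 had 0.01 (adjusted p = 0.85, edgeR), but with total counts it passed as lower (-0.14, adjusted p = 0.0309, edgeR), which made 2 names of this list lower and 0 higher.

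**Figure D4:**
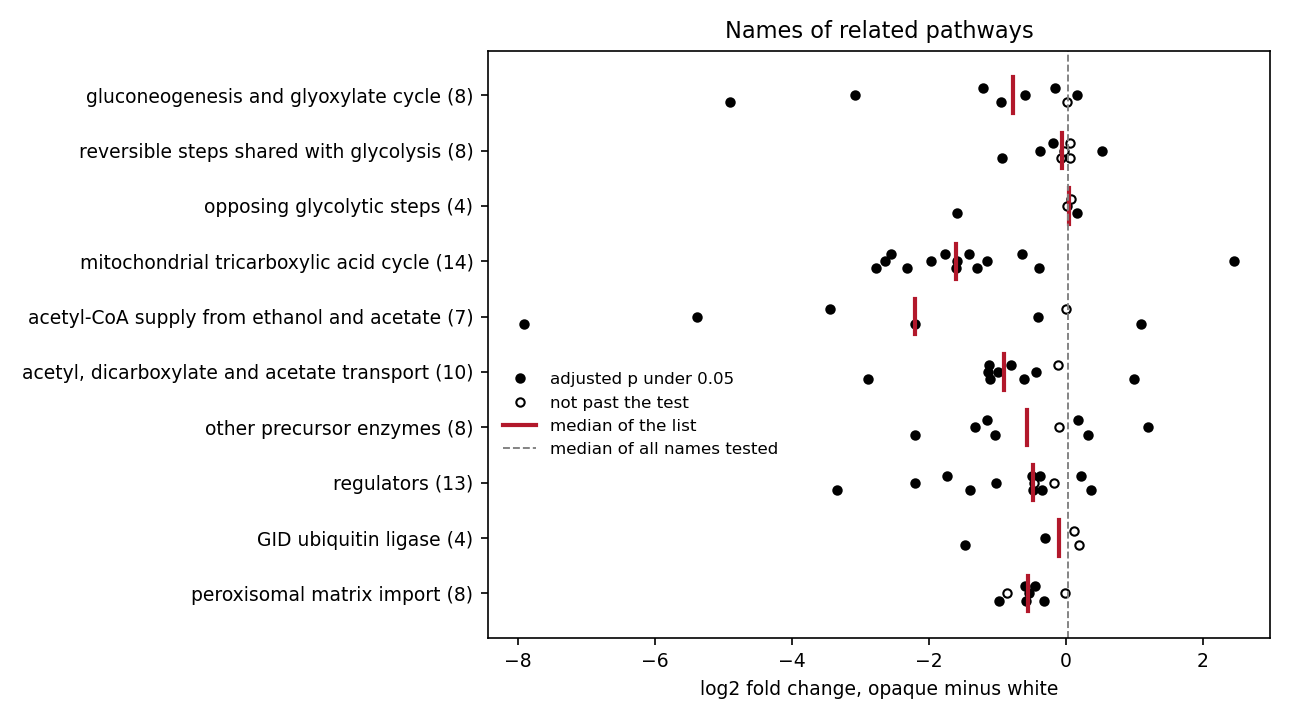
Log2 fold change (opaque minus white) of each tested name of 10 lists, with the number of names in brackets, filled where the adjusted p was under 0.05, red lines at list medians and a dashed line at the median of all names. The medians are lowest for acetyl-CoA supply (-2.21) and the tricarboxylic acid cycle (-1.60), at -0.77 for the 8 members, and near 0 for the steps shared with or opposing glycolysis.

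Carriers and transferases that move acetyl units, dicarboxylates and acetate fell for 8 of 10 names and rose for 1, with a median of -0.90. The acetate transporter ADY2, YAT1, which forms acetylcarnitine, and AGC1, the aspartate and glutamate carrier, fell, with -2.89, -1.11 and -1.12 in log2, whereas ODC2, an oxodicarboxylate carrier, rose by 0.99 (adjusted p = 6.8e-09, 4.0e-08, 4.8e-08 and 2.6e-07, edgeR). SFC1, the carrier that exchanges succinate from the glyoxylate cycle for fumarate, fell by 1.00 (adjusted p = 7.3e-07, edgeR). The SFC1 region that stands for the name is 920 bp long at 87.74% identity, and 4 further regions of at most 65 bp that carry it had 1.01 to 2.80, higher in opaque cells. Of 8 other enzymes that bring in precursors, 4 fell and 3 rose. Glycerol kinase (GUT1), cytosolic isocitrate dehydrogenase (IDP2) and AGX1, which makes glycine from glyoxylate, fell, with -2.21, -1.15 and -1.32 in log2, and the malic enzyme MAE1, which turns malate into pyruvate, rose by 1.21 (adjusted p = 8.5e-10, 3.2e-08, 1.5e-07 and 1.3e-08, edgeR). The MAE1 region that stands for the name is 1991 bp long at 77.13% identity. Of the other regions named MAE1, one of 92 bp at 34.21% identity fell by 1.53 (adjusted p = 3.9e-07, edgeR). Another of 95 bp had 0.225 and did not pass (adjusted p = 0.59, edgeR).

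Of 13 regulators 9 fell and 2 rose, with a median of -0.47. CAT8, the activator of gluconeogenic genes, was at 19.1 ± 1.38 CPM in opaque cells and 193.5 ± 13.8 CPM in white cells, and ADR1 at 29.5 ± 1.68 CPM in opaque cells and 136.6 ± 4.76 CPM in white cells (SD, n = 3 each). CAT8, ADR1, the subunit SNF4 of the Snf1 kinase and the phosphatase subunit REG1 fell, with -3.34, -2.21, -1.74 and -1.40 in log2 (adjusted p = 8.0e-11, 2.2e-10, 1.9e-09 and 2.9e-08, edgeR). The study had singled out CAT8 and ADR1 from these same libraries, so they are no independent evidence of a direction. Of the other regions named CAT8, one of 176 bp fell by 3.52 and one of 47 bp rose by 1.01 (adjusted p = 2.1e-10 and 0.00013, edgeR), and with the counts of all 3 summed CAT8 still fell, with -2.60 in log2. Matches of the CAT8, ADR1 and REG1 regions are diverged, at 48.87, 40.27 and 43.96% identity. With only regions of at least 200 bp and 50% identity, 6 of 9 regulator names fell and 1 rose. Among these, ADR1 is represented by another region, of 557 bp at 51.43% identity, which fell by 2.56 (adjusted p = 3.5e-09, edgeR). SIP4, another activator of these genes, had -0.46 in the region that stands for the name and did not pass (adjusted p = 0.066, edgeR). Of the other regions named SIP4, one of 146 bp at 28.99% identity fell by 0.86 (adjusted p = 0.0006, edgeR). Those of 365 and 86 bp had -0.20 and -0.02 and did not pass (adjusted p = 0.54 and 0.96, edgeR). With counts summed per name, 11 of 13 regulator names fell and 2 rose.

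For the GID ubiquitin ligase, which in S. cerevisiae marks Fbp1, Pck1, Icl1 and Mdh2 for destruction when glucose returns, 2 of 4 names fell and 0 rose. At an unadjusted p under 0.05, VID24 at 0.19 (adjusted p = 0.062, edgeR) would have counted as higher, and it passed with DESeq2 (0.20, adjusted p = 0.0371). VID30 and FYV10 fell, with -1.48 and -0.30 in log2, and RMD5 had 0.11 (adjusted p = 4.6e-08, 0.012 and 0.3, edgeR). The FYV10 match is at 46.4% identity. With only regions of at least 200 bp and 50% identity, 1 of 3 GID names fell and 0 rose. Without white library 3, RMD5 passed as higher (0.21, adjusted p = 0.0454, edgeR). Proteins that import enzymes into the peroxisome, where part of the glyoxylate cycle lies, fell for 6 of 8 names, with a median of -0.56, and for 3 of 4 with the stricter regions. PEX17, PEX14 and PEX13 fell, with -0.98, -0.58 and -0.54 in log2 (adjusted p = 4.2e-06, 3.6e-05 and 2.0e-04, edgeR), while the import receptor PEX5 was at 84.1 ± 5.70 CPM in opaque cells and 84.6 ± 1.73 CPM in white cells (SD, n = 3 each) and did not pass. The PEX17 match is diverged, at 34.74% identity, and is not among the stricter regions, whose median was -0.43.

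Because strand use in counting is not given in the sources used here, the regions beside the main members were also read. FBP1 lies between MCH1, 1524 bp away, and LHP1, 2143 bp away, which rose by 0.64 and 2.66 where FBP1 fell (adjusted p = 5.7e-06 and 6.5e-08, edgeR). Before PCK1 lies IMP2', 2004 bp away, which fell by 0.81 (adjusted p = 7.6e-07, edgeR), and an 80 bp region 181 bp after it fell by 1.51 (adjusted p = 0.0044, edgeR). RGI1, 2523 bp before ICL1, fell by 3.43 (adjusted p = 1.1e-10, edgeR), and ARL3, an 83 bp region 475 bp after it, had 0.08 (adjusted p = 0.87, edgeR). Beside MDH2, BXI1 fell by 0.23 at 312 bp, and YOR161C-C, a region of 50 bp at 799 bp, had -1.68 and fell as well (adjusted p = 0.011 and 0.00032, edgeR). The regions beside MLS1, DMA2 and MSH4, had 0.19 and 0.09 (adjusted p = 0.011 and 0.29, edgeR). Beside MDH3, EAP1 fell by 0.78 and AZR1 rose by 0.61 (adjusted p = 0.00088 and 1.7e-05, edgeR). Next to PYC2, SOH1 fell by 0.28, and ATG12 had -0.11 and did not pass (adjusted p = 0.031 and 0.28, edgeR). YFH7 and REC8, beside ICL2, had -0.08 and 0.92 and did not pass (adjusted p = 0.28 and 0.11, edgeR).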

How the data were processed

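The authors extracted RNA from 3 opaque and 3 white cultures, made stranded mRNA libraries, aligned paired reads with STAR to the CLIB830T genome, assembled and merged transcripts with cufflinks, and named each region for its best BLAST match in S. cerevisiae. The submitters' notes also name DESeq2. The counter and its use of strand and read pairs are not given in the sources used here. The values as deposited are whole-number counts per region without normalization, and intervals cover the spread between libraries only. The bases covered, region lengths and covered fraction were deposited by the authors beside each count, and the percent identity in the annotation deposited by the authors comes from BLAST. 2 genomic DNA samples have no file here and were not analysed. Labels and methods differ on culture volume and shaking.

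The 4482 annotation rows gave 4464 distinct regions, all matched to counts by scaffold and coordinates. Counts were scaled by TMM, filtered with filterByExpr and fitted on cell type alone by a robust quasi-likelihood model (edgeR 4.0.16, R 4.3.3), with Benjamini-Hochberg adjustment over 4404 regions. The SE of a log2 fold change was its size over the square root of F, and 95% intervals used it. Ratios were tested with exact permutation tests (scipy 1.17.1). The fit was checked on simulated counts and no pair of libraries was a duplicate. All member regions are named. For each other list the up to 4 names with the smallest p, and the partners in ratios, are named, and further names were chosen after their values were seen. Some names that this rule gives are not reported here. The members, lists and tests were chosen with earlier results of these data known. Alternatives were other scalings, filters on low counts, DESeq2 1.42.0, a block on culture number, counts summed per name, and leaving out each library. A stricter choice of regions was added after the data were seen.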

Additional observations from a re-analysis of the deposited data

How the results depend on the processing

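PCK1, FBP1, MDH2 and ICL2 fell under all 14 alternatives, with log2 fold changes of -5.06 to -4.80, -3.23 to -3.01, -1.36 to -1.15 and -0.75 to -0.56. The number of member regions called was 5 to 8. The single rise among them (MDH3) went to 0 with upper-quartile scaling, total counts, at least 10 counts in every library, the replicate block and counts summed per name, and was 0 to 2 when a library was left out, of which the 2 without white library 2 are MDH3 and the short ICL1 region. MLS1 turned to -0.094 with upper-quartile scaling, -0.14 with total counts, -0.012 with at least 10 counts and -0.025 with counts summed per name, and was -0.028 to 0.064 with a library left out. CDC19 turned to -0.042 and -0.082 with upper-quartile scaling and total counts, and RMD5 to -0.006 and -0.050, whereas RMD5 passed as higher without white library 3 (0.21, adjusted p = 0.0454, edgeR). PFK2 turned to -0.10 and to -0.14, past the test as lower (adjusted p = 0.0309, edgeR), to -0.001 without a filter, -0.019 with at least 10 counts and -0.032 with summed counts, and was -0.025 to 0.038 with a library left out. Upper-quartile scaling and total counts placed the median of all regions at -0.14 and -0.18, against -0.02 with TMM. With counts summed per name, the differences of the ICL1 ratios to MLS1, IDH1 and IDH2 were -0.38, 0.79 and 2.29. The causes were not tested.

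The labels number the cultures but do not say whether equal numbers were grown as pairs, and the paper speaks of matched log-phase cultures. Deviations of libraries with the same number correlated at -0.02, -0.06 and 0.23, and those with different numbers at -0.316 to 0.284. With 3 cultures per group these values cannot decide whether the samples are paired. With a replicate block on the culture number, 5 member regions were called in place of 7, since MDH3 (0.17, adjusted p = 0.0573) and PYC2 (-0.17, adjusted p = 0.079, edgeR) no longer passed. PGK1 (-0.18, adjusted p = 0.064) and PFK1 (0.17, adjusted p = 0.0829, edgeR) were lost too. Depth limits ICL1 and both short regions most, with 4 to 165 counts in a library.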
